A study of Mus musculus with 12 samples.

Results

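The Hoxa, Meis and Pbx homeodomain factors were followed together with the coregulator gene Mn1 across 4 sorted mouse progenitor populations. The members were 8 genes, Hoxa5, Hoxa7, Hoxa9, Hoxa10, Meis1, Pbx2, Pbx3 and Mn1. They were taken by name, as all probe sets annotated with a member as their single gene symbol. This gave 16 probe sets of the 45037 on the arrays, with 3 each for Meis1 and Pbx2, 2 each for Hoxa5, Hoxa9, Hoxa10 and Pbx3, and 1 each for Hoxa7 and Mn1. Hoxa7 was high in CD27+ CMP and GMP and low in CD27- CMP and MEP, as was Hoxa9 with its most variable probe set. The second Hoxa9 probe set did not pass the test for GMP against MEP (adjusted p = 0.088 by limma) or against CD27- CMP (0.097). Meis1 was highest in CD27+ CMP and lowest in MEP, and Mn1 was raised in CD27+ CMP over each other population. No probe set of Pbx2, Pbx3 or Hoxa10 passed the test in any comparison in the fit of all arrays, and those of Hoxa5 passed in 2.

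Hox proteins are homeodomain transcription factors encoded in clusters, and those of the Hoxa cluster act in early blood formation. They bind DNA together with Pbx and Meis proteins, which belong to the TALE class of homeodomain factors. Hoxa9 and Meis1 are active in stem and early progenitor cells of the marrow, decline as cells mature, and together transform mouse marrow progenitors into leukaemia when overexpressed. Mn1 is a transcriptional coregulator whose overexpression causes myeloid leukaemia in mice, a property that was reported to depend on Meis1 and Hoxa partners in the starting cell.

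The upstream sequences of Hoxa7, Hoxa9 and Meis1 are shown because these members were called together in the main comparisons. They cover the 250 bases before the annotated start, from RefSeq on GRCm38.p6, all on the minus strand, and 6 of the 8 members had such an entry. Hoxa7 lies at chr6:52218574-52218823, Hoxa9 at chr6:52227371-52227620 and Meis1 at chr11:19018970-19019219. Capitals mark TTTATG, the core bound by Cdx factors, which control Hox genes in the mouse embryo.
Hoxa7: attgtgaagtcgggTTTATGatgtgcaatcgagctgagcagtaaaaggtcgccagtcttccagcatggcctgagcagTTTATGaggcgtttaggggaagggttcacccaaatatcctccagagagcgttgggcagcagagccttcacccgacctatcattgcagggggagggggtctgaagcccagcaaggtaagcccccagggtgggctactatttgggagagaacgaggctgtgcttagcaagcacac
Hoxa9: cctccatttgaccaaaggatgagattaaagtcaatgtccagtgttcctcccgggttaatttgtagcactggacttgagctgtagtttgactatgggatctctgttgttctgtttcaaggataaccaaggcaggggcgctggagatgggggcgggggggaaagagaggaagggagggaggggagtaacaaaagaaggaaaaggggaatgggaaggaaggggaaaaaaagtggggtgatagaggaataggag
Meis1: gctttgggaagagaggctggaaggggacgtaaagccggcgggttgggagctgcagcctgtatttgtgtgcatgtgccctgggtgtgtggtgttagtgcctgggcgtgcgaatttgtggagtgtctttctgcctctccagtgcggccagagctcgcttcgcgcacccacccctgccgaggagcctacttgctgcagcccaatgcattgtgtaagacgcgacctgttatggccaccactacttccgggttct
On both strands, 3 motifs were searched, chosen with these sequences in view: TTTATG, the Meis core TGACAG and the Pbx and Hox composite TGATTNAT. TTTATG occurred at 2 places upstream of Hoxa7, with first bases at -236 and -173 from the start, and not in the windows of Hoxa9 or Meis1. Of all 32851 upstream windows of this length, 10.8% held TTTATG, 15.9% held TGACAG and 2.82% held TGATTNAT. Neither TGACAG nor TGATTNAT occurred in the windows shown, and no overlap of motifs arose. Matches describe the letters in these windows and were not tested as binding sites.

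The cells came from bone marrow of female C57BL/6 mice aged 4 to 6 weeks and all lacked lineage markers and Sca-1 and carried CD117, with no treatment or allele named in the labels. There were 3 Affymetrix arrays for each population. Common myeloid progenitors (CMP) were sorted as CD34+ CD16/32- and divided into a CD27+ and a CD27- fraction. Granulocyte-monocyte progenitors (GMP) were sorted as CD34+ CD16/32+ CD27+ cells, and megakaryocyte-erythrocyte progenitors (MEP) as CD34- CD16/32- CD27- cells. RNA of 80000 cells was used per population. The labels call the arrays of each population biological replicates but do not say whether they came from separate animals or from pools. The p-values thus measure the spread between these arrays.

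Every probe set had been centred on its median over the 12 arrays, so a value is a log2 signal relative to that median and not a level, and no gene can be ranked above another. A difference of 1 log2 between populations is a doubling. Differences were tested with limma over all 45037 probe sets in a single fit, and a call is an adjusted p under 0.05 after Benjamini-Hochberg adjustment. The labels were checked against marker genes. All 5 erythroid markers (Klf1, Gata1, Epor, Rhag and Ermap) were called lower in CD27+ CMP than in CD27- CMP and lower in GMP than in MEP. All 5 granulocyte-monocyte markers (Cebpa, Csf1r, Mpo, Elane and Irf8) were called higher in the same comparisons. Cd34 RNA averaged 4.10 in CD27+ CMP and -3.22 in CD27- CMP, although both were sorted as CD34+. Between CD27- CMP and MEP 20 of all probe sets were called, 0.0444%. Within populations the SD of the difference between a pair of arrays had a median of 0.555 log2 over 15263 probe sets that varied by at least 1 log2. CD27- CMP replicate 3 stood farthest from its partners, at 0.825 and 0.685 log2.

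Hoxa9, the AbdB-type Hox factor most closely tied to myeloid progenitors, read 1.41, 1.07 and 1.25 in CD27+ CMP, -1.21, -0.73 and -0.89 in CD27- CMP, 0.87, 0.73 and 0.82 in GMP and -0.88, -1.12 and -1.08 in MEP with its most variable probe set (1455626_at). All 6 arrays of CD27+ CMP and GMP lay above all 6 of CD27- CMP and MEP. The difference between CD27+ and CD27- CMP was 2.19 log2 (SE 0.13, adjusted p = 3.2e-06 by limma, n = 3 per group), or 4.55-fold. GMP exceeded MEP by 1.83 log2 (SE 0.13, adjusted p = 8.6e-06). CD27- CMP was lower than GMP by -1.75 log2 (adjusted p = 1.3e-05), and CD27+ CMP was higher than MEP by 2.27 log2 (adjusted p = 2.2e-06). All 3 CD27+ CMP arrays also lay above the GMP arrays, but the difference of 0.44 log2 did not pass (95% interval 0.15 to 0.73, adjusted p = 0.15). Between CD27- CMP and MEP the difference was 0.08 log2, with a 95% interval from -0.21 to 0.37 (adjusted p = 0.82).

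The second Hoxa9 probe set (1421579_at) had a different shape. Its arrays read 0.90, 1.11 and 0.56 in CD27+ CMP, between -0.12 and -0.08 in CD27- CMP, 0.30, 0.08 and 0.47 in GMP and between -0.13 and -0.09 in MEP. CD27+ CMP stood above all other arrays, and the 6 CD27- CMP and MEP arrays were nearly equal. The difference between CD27+ and CD27- CMP was 0.96 log2 (SE 0.13, adjusted p = 0.00085). GMP was above MEP by 0.39 log2 (adjusted p = 0.088) and CD27+ CMP was above GMP by 0.57 log2 (adjusted p = 0.058), and neither difference passed. Centred values do not show whether its signal was near background.

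Hoxa7, a neighbouring gene of the cluster, varied most among the members. Its single probe set read 2.25, 2.48 and 1.70 in CD27+ CMP, -0.98, -1.04 and -2.11 in CD27- CMP, 1.46, 0.98 and 2.26 in GMP and -2.08, -2.26 and -2.12 in MEP. As for Hoxa9, the CD27+ CMP and GMP arrays did not overlap those of CD27- CMP and MEP. CD27- CMP replicate 3 lay among the MEP arrays, and the other CD27- CMP arrays lay above them. CD27+ CMP exceeded CD27- CMP for Hoxa7 by 3.52 log2, or 11.5-fold (SE 0.38, adjusted p = 0.00019), and GMP exceeded MEP by 3.72 log2, or 13.1-fold (SE 0.38, adjusted p = 0.00012). The difference of CD27+ CMP from MEP was 4.29 log2 (adjusted p = 4.5e-05) and that of CD27- CMP from GMP was -2.94 log2 (adjusted p = 6e-04). Within each CD27 class nothing passed: CD27+ CMP minus GMP was 0.58 log2 (95% interval -0.29 to 1.45, adjusted p = 0.92) and CD27- CMP minus MEP was 0.77 log2 (95% interval -0.10 to 1.64, adjusted p = 0.79).

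Meis1, the TALE partner of Hoxa9, read 1.87, 2.23 and 2.12 in CD27+ CMP, 0.06, -0.50 and -0.67 in CD27- CMP, 0.01, -0.01 and 0.41 in GMP and -1.62, -1.67 and -1.38 in MEP with its most variable probe set (1450992_a_at). The CD27+ CMP arrays lay above all others and the MEP arrays below all others, while CD27- CMP and GMP overlapped between them. The means were 2.07 ± 0.19 in CD27+ CMP, -0.37 ± 0.38 in CD27- CMP, 0.14 ± 0.24 in GMP and -1.56 ± 0.16 in MEP (SD, n = 3 each). CD27+ CMP was higher than CD27- CMP by 2.45 log2 (SE 0.20, adjusted p = 2.7e-05), than GMP by 1.94 log2 (SE 0.20, adjusted p = 0.00088) and than MEP by 3.63 log2 (SE 0.20, adjusted p = 1.9e-06), a 12.4-fold difference. GMP was higher than MEP by 1.69 log2 (SE 0.20, adjusted p = 0.00027). CD27- CMP and GMP differed by -0.51 log2 (95% interval -0.96 to -0.06), which did not pass (adjusted p = 0.15).

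CD27- CMP lay above MEP by 1.18 log2 for this Meis1 probe set, with all 3 arrays above all 3, a 95% interval from 0.74 to 1.63 and an unadjusted p of 0.00021 by limma. It did not pass over all probe sets (adjusted p = 0.13). Without CD27- CMP replicate 3 the difference was 1.33 log2 at an adjusted p of 0.05 after rounding, just past the threshold. With array weights the adjusted p was 0.0029, but 3820 of all probe sets were then called in this comparison, beside 20 without weights. No other alternative gave a call, and the highest adjusted p among them was 0.54. Of all probe sets, 0.36% had a larger absolute difference between CD27- CMP and MEP.

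A second Meis1 probe set (1443260_at) was high in a single population. It read 3.31, 1.32 and 2.53 in CD27+ CMP, -0.12, 0.09 and 0.12 in CD27- CMP, 0.40, -0.11 and -0.15 in GMP and -0.09, -0.25 and -0.17 in MEP. The CD27+ CMP arrays were the highest 3 of 12 and were widely spread, while the 9 other arrays lay within 1 log2 of each other. CD27+ CMP was higher than CD27- CMP by 2.36 log2 (SE 0.41, adjusted p = 0.0036), than GMP by 2.34 log2 (SE 0.41, adjusted p = 0.015) and than MEP by 2.56 log2 (SE 0.41, adjusted p = 0.0019). With only the arrays compared in the fit, the call against CD27- CMP was lost (adjusted p = 0.058). The call against GMP was lost with only the arrays compared in the fit (adjusted p = 0.18), and without CD27+ CMP replicate 3 (adjusted p = 0.061) or GMP replicate 2 (adjusted p = 0.066). Unlike the first probe set, this one did not separate GMP from MEP (0.22 log2, 95% interval -0.71 to 1.14, adjusted p = 0.70). The third Meis1 probe set (1459423_at) was flat, with a range of 0.16 log2 over the 12 arrays.

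Mn1, the coregulator, read 0.92, 1.79 and 1.02 in CD27+ CMP, 0.32, 0.01 and -0.05 in CD27- CMP, -0.52, -0.41 and -0.54 in GMP and -0.24, 0.03 and -0.01 in MEP. All CD27+ CMP arrays lay above all others, and all GMP arrays lay below all others. CD27+ CMP was higher than CD27- CMP by 1.15 log2 (SE 0.21, adjusted p = 0.0045), than GMP by 1.73 log2 (SE 0.21, adjusted p = 0.0020), or 3.33-fold, and than MEP by 1.32 log2 (SE 0.21, adjusted p = 0.0018). With only the arrays of the groups compared in the fit, the first of these had an adjusted p of 0.066 and the second 0.061. In the fit of all arrays the lower signal of GMP did not pass against MEP (-0.42 log2, 95% interval -0.89 to 0.05, adjusted p = 0.26) or against CD27- CMP (CD27- CMP minus GMP 0.58 log2, 95% interval 0.11 to 1.05, adjusted p = 0.11). With only the arrays compared, both passed, at adjusted p of 0.033 and 0.036. GMP was thus the population with the lowest Mn1 readings, while its Hoxa9 and Hoxa7 readings were among the high ones.

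**Figure D1:**
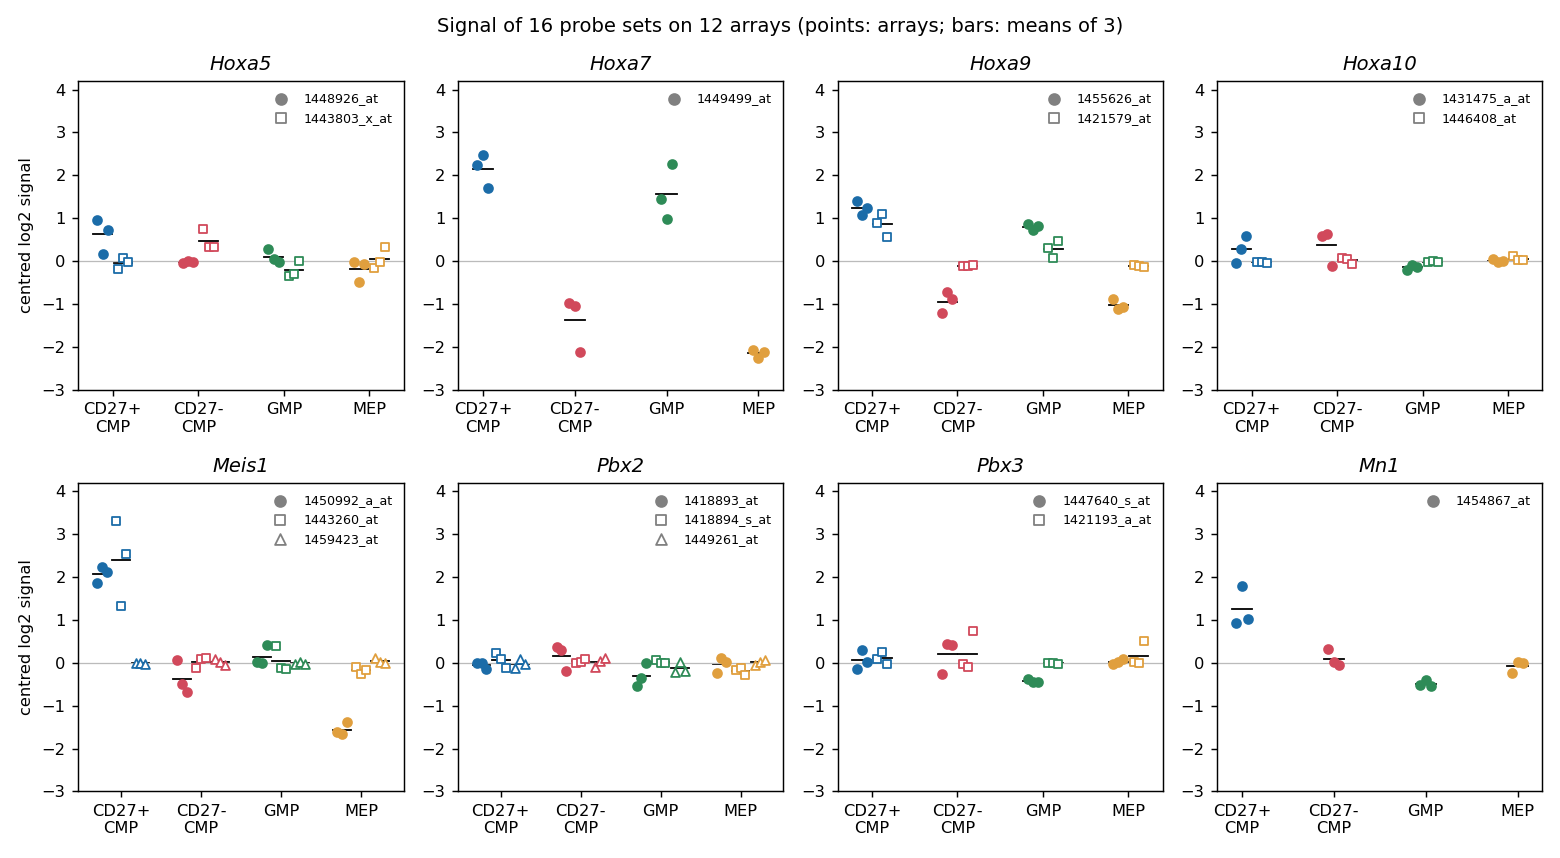
Centred log2 signal (y axis) of the 16 member probe sets, one panel per gene, in CD27+ CMP, CD27- CMP, GMP and MEP (x axis), with points for arrays and black bars for means of 3 arrays; filled points are the most variable probe set of a gene. Filled points of Hoxa7 and Hoxa9 are high in CD27+ CMP and GMP, and those of Meis1 and Mn1 are highest in CD27+ CMP. Hoxa10, Pbx2 and Pbx3 stay within 1 log2 of 0.

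Hoxa5, which acts in myeloid and erythroid lineage choice of human marrow progenitors, gave readings that went against each other. The more variable probe set (1448926_at) read 0.97, 0.17 and 0.73 in CD27+ CMP, -0.04, 0.01 and -0.02 in CD27- CMP, 0.28, 0.05 and -0.02 in GMP and -0.01, -0.48 and -0.07 in MEP. It was called in 1 comparison, higher in CD27+ CMP than in MEP by 0.81 log2 (SE 0.20, adjusted p = 0.021), and lost the call without CD27+ CMP replicate 1 (0.068), CD27+ CMP replicate 3 (0.075) or MEP replicate 2 (0.076), or with only the arrays compared in the fit (0.11, all adjusted p). The other (1443803_x_at) was highest in CD27- CMP, at 0.75, 0.34 and 0.33, and lowest in GMP, at -0.34, -0.29 and 0.01. CD27- CMP was higher than GMP by 0.68 log2 (SE 0.16, adjusted p = 0.020), and the call was lost without CD27- CMP replicate 1 (0.063), GMP replicate 1 (0.080) or GMP replicate 2 (0.070), or with only the arrays compared (0.066, all adjusted p). Between CD27+ and CD27- CMP the more variable probe set gave 0.64 log2 (95% interval 0.20 to 1.09) and the other -0.51 log2 (95% interval -0.87 to -0.15), with adjusted p values of 0.065 and 0.072. A probe set with the suffix x can also pick up related transcripts.

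Hoxa10, the other AbdB-type member, passed in no comparison. Its more variable probe set (1431475_a_at) read -0.05, 0.29 and 0.59 in CD27+ CMP, 0.59, 0.63 and -0.12 in CD27- CMP, -0.20, -0.08 and -0.14 in GMP and 0.04, -0.01 and 0.01 in MEP. The CMP fractions overlapped and were widely spread. CD27+ CMP minus CD27- CMP was -0.09 log2 with a 95% interval from -0.56 to 0.38 (adjusted p = 0.82). Without CD27- CMP replicate 3, CD27- CMP was higher than GMP by 0.75 log2 (adjusted p = 0.011), against 0.51 log2 (adjusted p = 0.17) with all arrays. The second Hoxa10 probe set had a range of 0.18 log2. With centred values, a flat probe set gives no information on whether the gene was expressed.

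Pbx2 and Pbx3 encode cofactors that raise the DNA affinity of Hox proteins. The 5 probe sets of both genes had ranges from 0.34 to 0.93 log2 over the 12 arrays. None was called in any of the 6 comparisons in the fit of all arrays. For Pbx2, CD27+ CMP minus CD27- CMP lay at -0.21, 0.03 and -0.04 log2, with 95% intervals inside -0.62 to 0.21. For Pbx3 the differences were -0.14 and -0.11 log2, with 95% intervals inside -0.60 to 0.39. Pbx2 probe set 1418894_s_at gave 0.26 log2 for CD27+ CMP minus MEP (95% interval 0.07 to 0.44, adjusted p = 0.065 by limma). That difference was called in 4 of 19 alternatives, among them quantile normalization (adjusted p = 0.010). The other Pbx2 probe sets gave -0.02 and -0.03 log2 there. For GMP minus MEP 1418894_s_at gave 0.20 log2 (adjusted p = 0.15), called in 2 of 19 alternatives.

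Pbx3 stood lowest in GMP with its more variable probe set (1447640_s_at), which read -0.15, 0.31 and 0.02 in CD27+ CMP, -0.26, 0.43 and 0.42 in CD27- CMP, -0.38, -0.44 and -0.45 in GMP and -0.02, 0.03 and 0.08 in MEP. All 3 GMP arrays lay below the 9 others. CD27- CMP minus GMP was 0.62 log2 (95% interval 0.21 to 1.02) at an adjusted p of 0.05 after rounding, just short of the threshold. It passed in some of the alternative settings, with an adjusted p of 0.0013 without CD27- CMP replicate 1, where the difference was 0.85 log2. GMP minus MEP was -0.45 log2 (95% interval -0.86 to -0.05, adjusted p = 0.15, and 0.0017 with only the arrays compared in the fit), and CD27+ CMP minus GMP was 0.48 log2 (adjusted p = 0.32). The other Pbx3 probe set (1421193_a_at) averaged 0.10 in CD27+ CMP, 0.21 in CD27- CMP, -0.01 in GMP and 0.17 in MEP, and its arrays overlapped. The CD27- CMP and MEP means rested on replicate 3 of each, at 0.75 and 0.50. The other arrays of these populations lay between -0.09 and 0.01, beside -0.02 to 0 in GMP.

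Between CD27+ and CD27- CMP, the fractions of 1 gate, 6 of the 16 member probe sets were called higher and 0 lower. Of all probe sets 14.1% were called, 7.65% higher and 6.49% lower. The calls came from Hoxa7, Hoxa9, Meis1 and Mn1. The members were chosen with earlier results of these data known, so the share of all is background and not a test. The median member difference was 0.00 log2, beside -0.02 over all probe sets. Between GMP and MEP, the committed populations, 3 of 16 were called higher and 0 lower, beside 14.8% of all probe sets called in either direction and 7.54% higher and 7.27% lower, and they belonged to Hoxa7, Hoxa9 and Meis1. Under quantile normalization 5 were called higher and 0 lower. With array weights 5 were higher and 4 lower, while 17650 of the 45037 probe sets were called under that setting. In bulk RNA, fewer cells of a type and less RNA per cell cannot be told apart.

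**Figure D2:**
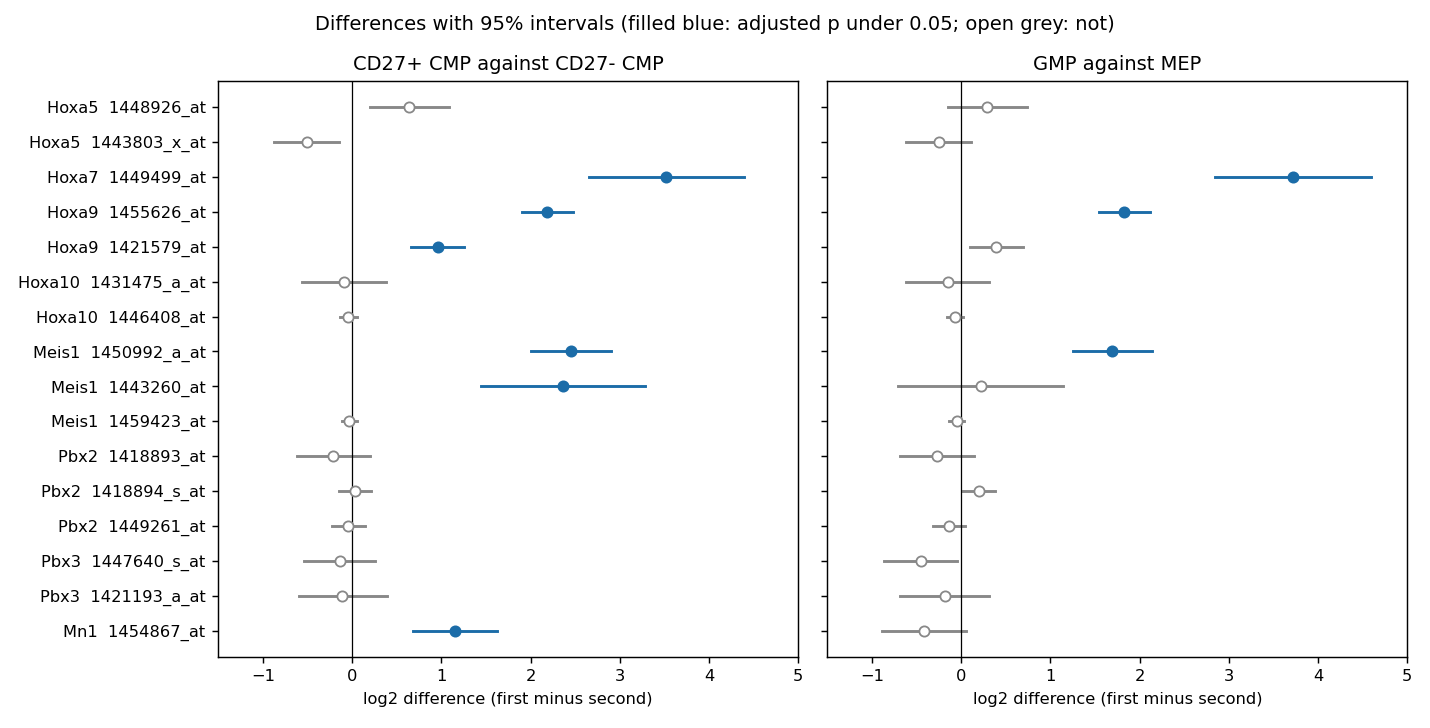
Log2 difference (x axis) of each of the 16 member probe sets for CD27+ CMP minus CD27- CMP (left) and GMP minus MEP (right), with 95% intervals; filled blue points have an adjusted p under 0.05. The left panel holds 6 calls and the right panel 3, all above 0.

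Each CMP fraction was also set against the committed populations. CD27+ CMP had 3 of 16 probe sets called higher than GMP and 0 lower, namely 2 of Meis1 and that of Mn1, beside 3.04% of all probe sets called in either direction, 1.47% higher and 1.57% lower. Against MEP it had 7 called higher and 0 lower, beside 16% of all called, 7.67% higher and 8.34% lower. CD27- CMP had 0 of 16 called against MEP by limma, with 3 at an unadjusted p under 0.05, beside 0.0444% of all probe sets called, 0.0111% higher and 0.0333% lower. Against GMP it had 1 called higher and 2 lower, beside 14.2% called, 6.3% higher and 7.9% lower. Arrays that did not overlap were counted as well. CD27+ CMP lay wholly above CD27- CMP in 7 member probe sets and wholly below in 1, beside 11.4% and 15.1% of all. GMP lay wholly above MEP in 5 and below in 4, beside 10.8% and 22% of all. CD27+ CMP lay wholly above GMP in 7 and below in 0, beside 5.54% and 6.71%. CD27- CMP lay wholly above MEP in 3 and below in 0, beside 1.63% and 5.56%. CD27+ CMP lay wholly above MEP in 8 and below in 2, beside 11.2% and 45.4%, and CD27- CMP wholly above GMP in 3 and below in 3, beside 11.9% and 11.3%. The comparisons share arrays of the same populations and are not independent of each other.

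Whether the step between a CMP fraction and its committed counterpart differed was tested as CD27+ CMP minus GMP against CD27- CMP minus MEP. Of all probe sets 1.1% were called, 0.562% with a positive and 0.535% with a negative difference. Mn1 was the 1 of 16 member probe sets called, with a step of 1.73 log2 on the CD27+ side and 0.17 log2 on the CD27- side. The difference of steps was 1.57 log2 (SE 0.29, 95% interval 0.90 to 2.23, adjusted p = 0.044). The call was narrow and was lost in 14 of 19 alternatives, among them each fit that left out a single array other than CD27+ CMP replicate 1 or 2, with adjusted p from 0.010 to 0.13 and a difference from 1.30 to 1.73 log2. With the replicate block the adjusted p was 0.074. For Meis1 the difference of steps was 2.14 log2 with 1443260_at (95% interval 0.84 to 3.44, adjusted p = 0.20, and 0.0079 without CD27+ CMP replicate 2). With the probe set 1450992_a_at it was 0.75 log2 (95% interval 0.12 to 1.39, adjusted p = 0.54). For Hoxa7 it was -0.20 log2 (95% interval -1.42 to 1.03, adjusted p = 0.99).

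**Figure D3:**
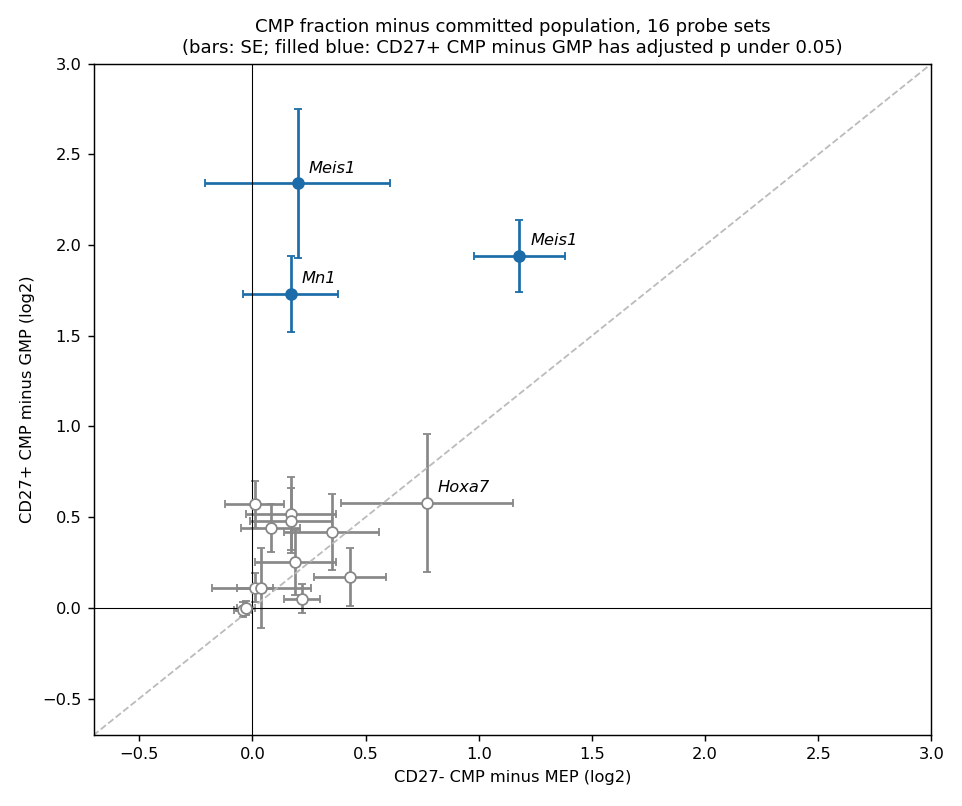
CD27+ CMP minus GMP (y axis, log2) against CD27- CMP minus MEP (x axis, log2) for the 16 member probe sets, with SE bars and a dashed line of equal steps; filled blue points were called for CD27+ CMP minus GMP. Mn1 and both varying Meis1 probe sets lie above the line, Mn1 at 1.73 and 0.17.

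For each member that varied by at least 1 log2, the most similar genes were sought among 13021 probe sets of named genes with that range, by Pearson r over the 12 arrays. The arrays fall into 4 populations, so r is a description of shared order. Closest to Hoxa9 were Smad5, a signal transducer of bone morphogenetic proteins (r = 0.997), the surface protein gene Cd48 (0.996) and the chromatin organizer gene Satb1 (0.995). Closest to Hoxa7 were the sulfotransferase gene Gal3st1 (0.993), the inositol kinase gene Itpkb (0.990) and Unc93b1, which carries Toll-like receptors (0.990). Many probe sets shared these patterns: 1466 had r of at least 0.9 with Hoxa9 and 1356 with Hoxa7.

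The patterns of Meis1 and Mn1 had fewer neighbours, with 257 and 47 probe sets at r of at least 0.9. Meis1 was most like Mfge8, encoding a secreted protein that bridges dying cells to phagocytes (r = 0.980), Ifi27l2a, an interferon-inducible gene (0.979), and the phospholipase gene Plcg1 (0.977). Mn1 was most like the sarcoglycan gene Sgce (0.975), the chemokine receptor gene Ccr7 (0.966) and Ctxn1 (0.951). For the more variable Hoxa5 probe set 3 candidates reached 0.9, the second Meis1 probe set (0.923), the ubiquitin ligase subunit gene Fbxl20 (0.921) and Git2 (0.904). Among the members, Hoxa7 and Hoxa9 had r = 0.96 with each other, and their r with the most variable Meis1 probe set was 0.87 and 0.84.

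Few probe sets of the other Hox genes were called, and centred values do not show whether the flat ones were expressed. Of 41 probe sets of 29 measured genes, 1 was called higher in CD27+ than in CD27- CMP and 0 lower (2.44% called, beside 14.1% of all). The same counts held for GMP against MEP, beside 14.8% of all. Both calls were Hoxb4, a stem cell Hox factor, at 0.70 log2 between the CMP fractions (SE 0.14, adjusted p = 0.0073) and 0.48 log2 between GMP and MEP (SE 0.14, adjusted p = 0.044). Its second probe set gave 0.01 and 0.11 log2. The median over the list was -0.02 and -0.03 log2. Hoxa6, which lies between Hoxa5 and Hoxa7, was not analysed here for want of an unshared symbol.

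Other TALE genes went both ways, with 1 of 20 probe sets higher and 1 lower in CD27+ than in CD27- CMP. That was 10% of the list, beside 14.1% of all. Tgif1, a TALE repressor of transforming growth factor signalling, was higher by 1.71 log2 (SE 0.23, adjusted p = 0.00075), and Pbx4 was lower by -0.89 log2 (SE 0.22, adjusted p = 0.024). In GMP against MEP 1 was higher and 4 were lower, 25% of the list beside 14.8% of all. Tgif1 was higher there (1.14 log2), and Pbx4 (-1.88), both Tgif2 probe sets (-0.75 each) and 1 of the Pknox1 probe sets (-0.45) were lower. The second Pbx4 probe set read -0.01 log2 between the CMP fractions and -0.82 log2 in GMP against MEP, and passed in neither. All Meis2 and Meis3 probe sets lay between -0.13 and -0.01 log2 in both comparisons.

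MLL, encoded by Kmt2a, keeps Hoxa genes active through histone methylation together with its elongation partners. Of 40 probe sets of 16 such genes 4 were higher and 3 lower in CD27+ than in CD27- CMP, 17.5% beside 14.1% of all. Kmt2a was higher by 2.30 log2 (SE 0.44, adjusted p = 0.0064), and its second probe set by 0.77 log2 (adjusted p = 0.28). Aff4 (1.37), Mllt6 (1.13) and Aff1 (0.63) were also higher, each with 1 of 3 probe sets. All 3 lower probe sets were of Mllt3, encoding the elongation factor AF9, at -4.04, -3.47 and -3.46 log2 (adjusted p of the first 4.8e-07). In GMP against MEP 2 were higher and 6 lower, 20% beside 14.8% of all, and the 6 were 3 probe sets each of Mllt3 and Psip1, with Mllt3 at -4.54, Aff1 at 1.90, Aff4 at 1.29 and Psip1, which tethers MLL to chromatin, at -1.28 log2. Mllt3 thus ran opposite to Hoxa9 and Hoxa7 in both comparisons.

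Cdx factors and Polycomb proteins set and silence Hox domains. Of 37 probe sets of 16 genes 2 were higher and 0 lower in CD27+ than in CD27- CMP, 5.41% beside 14.1% of all, namely the Polycomb genes Cbx2 (1.25 log2, SE 0.29, adjusted p = 0.017) and Cbx8 (1.20 log2, SE 0.25, adjusted p = 0.010). In GMP against MEP, Cbx8 (1.28) and the methyltransferase gene Ezh1 (0.58) were higher and Phc1 (-1.11) was lower. These calls were 8.11% of the list, beside 14.8% of all. The Cdx1, Cdx2 and Cdx4 probe sets lay between -0.12 and -0.01 log2 in both comparisons, and none was called. Centred values do not show whether these Cdx genes were expressed. Cbx2 was also higher in CD27+ CMP than in GMP, by 1.92 log2 (SE 0.29, adjusted p = 0.0067). Further probe sets of Cbx2 and Cbx8 were flat, at -0.01 and 0.02 log2 between the CMP fractions. The other Ezh1 probe sets gave -0.06, -0.05 and -0.04 log2 in GMP against MEP.

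Genes reported elsewhere as bound or regulated by Hoxa9 or Meis1 were counted as well. Of 37 probe sets of 12 genes 20 were higher and 2 lower in CD27+ than in CD27- CMP, 59.5% beside 14.1% of all, with a median of 1.27 log2. The 22 calls covered 10 genes. The cytokine receptor gene Flt3 was higher by 8.28 log2 (SE 0.35, adjusted p = 4.3e-07), Cd34 by 7.32 log2 (SE 0.70, adjusted p = 8.3e-05) and the survival gene Bcl2 by 5.11 log2 (SE 0.41, adjusted p = 2.5e-05). The pseudokinase gene Trib2, reported as a Meis1 target in mouse leukaemia, was lower by -7.48 log2 (SE 0.55, adjusted p = 1.5e-05), and its 2 other probe sets read -3.27 and -0.13. In GMP against MEP 13 were higher and 2 lower, 40.5% beside 14.8% of all, with Cd34 at 7.94, Trib2 at -7.27, Bcl2 at 4.13 and Erg, an ETS factor, at 3.52 log2. The list was chosen with earlier results of these data known. Cd34 was part of the sort, and several of these genes mark the lineages themselves. The list is thus no independent reading of Hoxa9 or Meis1 activity.

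**Figure D4:**
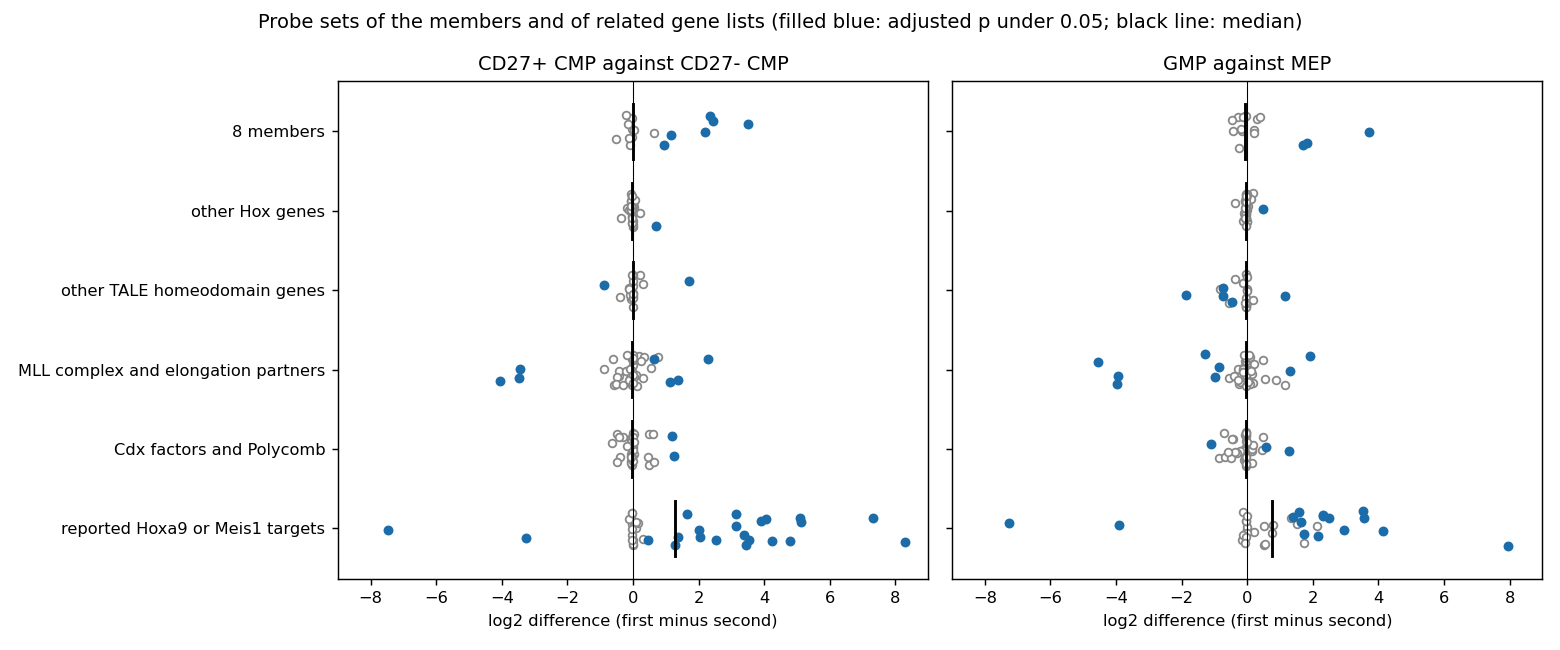
Log2 differences (x axis) of probe sets of the 8 members and of 5 related gene lists (rows) for CD27+ CMP minus CD27- CMP (left) and GMP minus MEP (right); filled blue points have an adjusted p under 0.05 and black lines are medians. Other Hox genes cluster at 0 with 1 call in each panel, while the reported targets spread from Trib2 at -7.48 to Flt3 at 8.28 in the left panel.

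Markers of other cells that the gates could hold were set beside these results. Of 8 stem and multipotent cell markers 7 had probe sets, and their summed centred signal ran from 5.06 to 10.1 in CD27+ CMP, 1.06 to 2.38 in CD27- CMP, -5.06 to -3.31 in GMP and -1.61 to 0.04 in MEP. CD27+ CMP exceeded the CD27- fraction in Procr (3.39 log2), Hlf (4.06) and Mecom (3.00), all called, whereas Slamf1 (-2.06) and Pdzk1ip1 (-3.19) were called lower. The highest sums fell in the population where Meis1 and Mn1 were highest, and their part in those results was not tested. The 6 megakaryocyte markers summed to -2.86 to -0.68 in CD27+ CMP, 3.80 to 14.1 in CD27- CMP, -11.4 to -4.02 in GMP and 1.16 to 6.40 in MEP, and Meis1 is also active in megakaryocytes. Their part in the Meis1 values of CD27- CMP was not tested. Markers of mature B cells (2 of 3 measured) and T cells (3 of 3) ranged over less than 1 log2. Of 4 stromal and endothelial markers 1, Pecam1, varied by at least 1 log2, and progenitors express it too. With centred values it cannot be read whether a flat marker was absent.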

How the data were processed

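Gene expression of 12 samples, 3 arrays for each of 4 sorted populations, was read from Affymetrix mouse expression arrays. Per the submitters' processing notes the authors used GCRMA. The deposited values were taken to be log2, the scale on which GCRMA reports. The median of every probe set lay within 5e-07 of 0, so the authors' values are centred and absolute signal is lost. No GCRMA version was given in the sources used here.

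The annotation gave 34945 probe sets 1 gene symbol, 932 several and 9160 none, and all 8 members matched RefSeq GRCm38.p6. Differences were tested two-sided by limma (version 3.58.1, under R 4.3.3) from a fit of all 12 arrays to population means, default moderation (prior degrees of freedom 0.992) and Benjamini-Hochberg adjustment over 45037 probe sets. The number of arrays limits precision, and the SE of a difference between populations had a median of 0.090 log2. The script was tested on simulated data. No filter was applied. A member was represented by the probe set with the largest SD over the 12 arrays, and its other probe sets were given beside it. In lists, the genes with the largest called differences were named, up to 4 per list, or all where 5 or fewer passed.

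Alternatives were quantile normalization, median centring of arrays, array weights, a range filter at 0.5 log2, a replicate block, robust moderation, 1 probe set per gene, only the arrays of the groups compared, and leaving out each array. Labels did not say what a shared replicate number marks. Same-numbered arrays deviated together, at r over 0.1, in every pair for GMP with MEP (r = 0.43, 0.27 and 0.58). The same held for CD27+ CMP with GMP (0.57, 0.23 and 0.26). It did not hold in every pair of other comparisons, as for CD27+ CMP with MEP (0.40, 0.09 and 0.20). The main fit did not pair arrays in any comparison, and pairing entered only through the replicate block. The members and lists were chosen with earlier results of these data known.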

Additional observations from a re-analysis of the deposited data

Results flagged for a closer look

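Mn1 was picked out because its difference between CD27+ CMP and GMP departed from that between CD27- CMP and MEP in a direct test of the difference of steps. The difference was 1.57 log2 (adjusted p = 0.044 by limma). All 3 CD27+ CMP arrays lay above all 3 GMP arrays, whereas the CD27- CMP and MEP arrays overlapped. The call was lost in 14 of 19 alternatives. Groups of 3 arrays were too small for the search for single outlying arrays.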

How the results depend on the processing

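Of 23 calls of member probe sets, 16 held under every alternative run for them, and no called difference changed sign. Those lost in some alternatives were Meis1 1443260_at against CD27- CMP and GMP, Mn1 against CD27- CMP and GMP, both Hoxa5 calls and the Mn1 difference of steps. For differences not called, each counted once per alternative, 23 of 1068 fits that left out 1 array gave a call, and 33 of 626 other fits did.

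Member counts moved as follows. GMP against MEP had 3 calls, all higher, 5 under quantile normalization (all higher), 9 with array weights (5 higher, 4 lower) and 5 with only the arrays compared (3 higher, 2 lower, Pbx3 1447640_s_at and Mn1). CD27+ CMP against GMP had 3, and 1 with only the arrays compared. CD27- CMP against MEP had 0 and against GMP 3, and 4 and 6 with array weights. The difference of steps had 1, and 0 under quantile normalization, median centring, the replicate block and robust moderation. Leaving out 1 array gave 6 to 7 calls between the CMP fractions, 3 to 5 for GMP against MEP, 2 to 4 for CD27+ CMP against GMP, 0 to 1 for CD27- CMP against MEP, 6 to 7 for CD27+ CMP against MEP, 0 to 2 for the difference of steps and 2 to 6 for CD27- CMP against GMP. GMP against MEP reached 5 without CD27+ CMP replicate 2 or 3. CD27- CMP against GMP reached 6 without CD27+ CMP replicate 2 and 5 without CD27- CMP replicate 3. The difference of steps reached 2 without CD27+ CMP replicate 2, and CD27- CMP against MEP reached 1 without CD27- CMP replicate 3.

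Over all probe sets, array weights raised the calls to 13737 between the CMP fractions (6369 without weights; 4554 higher and 9183 lower), 17650 for GMP against MEP (6671; 5362 higher and 12288 lower), 1627 for the difference of steps (494), 2533 for CD27+ CMP against GMP (1368), 3820 for CD27- CMP against MEP (20), 27715 for CD27+ CMP against MEP (7210; 5761 higher and 21954 lower) and 12428 for CD27- CMP against GMP (6393; 7623 higher and 4805 lower). The weights ran from 0.184 to 11.1, estimated gene by gene because the default estimate did not converge, and the cause of the added calls was not tested. With 1 probe set per gene, 18193 were tested, and the calls were 4071 and 4127 in the first 2 of these comparisons, 6 for CD27- CMP against MEP, 4446 for CD27+ CMP against MEP and 4051 for CD27- CMP against GMP. With only the arrays compared, CD27+ CMP against GMP had 600 and CD27- CMP against MEP 0. Leaving out 1 array gave 17 to 161 calls for CD27- CMP against MEP, the highest without CD27- CMP replicate 3, 898 to 1423 for CD27+ CMP against GMP, the lowest without GMP replicate 2, and 302 to 539 for the difference of steps, the lowest without MEP replicate 2.

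Deviations of same-numbered arrays correlated from -0.33 to 0.58, over 0.1 in 9 of 18 pairs, and an array correlated best with its own number in 17 of 36 cases. The replicate block changed 3 member calls, giving Hoxa5 1448926_at an adjusted p of 0.035 between the CMP fractions, Pbx3 1447640_s_at 0.040 for CD27- CMP against GMP and the Mn1 difference of steps 0.074. It changed no member call for GMP against MEP or CD27+ CMP against GMP, where same-numbered arrays deviated together in every pair. Centred values hide whether a flat probe set was expressed.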

Other observations

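Replicate 3 of both CD27- CMP and MEP departed from its partners for Pbx3 probe set 1421193_a_at, where CD27- CMP replicate 3 read 0.75 and MEP replicate 3 read 0.50, while the other arrays of these populations lay between -0.09 and 0.01. The probe set 1447640_s_at of the same gene read 0.42 and 0.08 on those arrays and 0.43 on CD27- CMP replicate 2. The flat probe sets of Hoxa10 (1446408_at) and Meis1 (1459423_at), with ranges of 0.18 and 0.16 log2, followed each other at r = 0.95 over the 12 arrays. Both lay wholly lower in CD27+ CMP than in MEP, as did 45.4% of all probe sets. Over ranges this small, r does not show that the genes varied together.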
